A study of Mus musculus with 9 samples.

Results

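Tnf and 9 genes of the NF-kB feedback loop were followed in whole lung of mice given fine particulate matter. The members were chosen by gene symbol: the cytokine Tnf, the subunit genes Nfkb1, Nfkb2 and Relb, and the cytoplasmic inhibitor genes Nfkbia and Nfkbie. The others were the nuclear IkB genes Nfkbiz and Bcl3, and the feedback enzymes Tnfaip3 and Zc3h12a. All 10 were among the 18875 genes of the deposited table, and all 10 were among the 13991 genes tested (at least 1 TPM in at least 3 libraries).

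TNF is a cytokine that binds receptors on many lung cells and turns on an inhibitor kinase complex, which marks the IkB proteins for destruction and so frees NF-kB dimers to enter the nucleus. NF-kB then drives chemokine, adhesion and acute phase genes, and also the genes for its own inhibitors, which shut the signal down again. A slower alternative pathway, run by receptors of the lymphotoxin and TWEAK type, acts through the products of Nfkb2 and Relb.

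RNA-seq was made from lungs of wild-type BALB/c mice, with 3 libraries in each of 3 groups. The long-term PM2.5 mice received 10 mg/kg of particles into the nose every 3 days, 6 times in all. The short-term PM2.5 mice received the same dose 1 time, and the PBS mice, the control, are described as a long-term exposure to the saline buffer PBS, so the short-term mice have no control of their own duration. When the lungs were taken, and the age and sex of the mice, are not stated in the sources used here. The labels do not say whether libraries of 1 group stem from different animals, so p-values measure only the spread between libraries, and an exact permutation test of 3 against 3 cannot go below 0.1.

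The libraries differed in ways that touch every value below. The short-term libraries lost signal with transcript length: with the genes ordered by length and split into 10 equal bins, the median log2 difference from PBS of the longest bin minus that of the shortest was between -1.67 and -0.82 in the short-term libraries, between -0.21 and -0.13 in the long-term libraries and between -0.06 and 0.04 in the PBS libraries. Short-term replicate 1 lay farthest out and had 12560 genes at 1 TPM or more, against 13414 and 13175 in the other short-term libraries, 13829 to 13930 in the long-term and 13534 to 13615 in the PBS libraries. The median change of all tested genes on the log2 scale was 0.03 (long-term against PBS), -0.34 (short-term against PBS) and 0.41 (long-term against short-term). Changes are also given after removal of the dependence on transcript length and GC content from every library, called the length-corrected change, under which these medians were -0.07, -0.02 and -0.03. The libraries were also treated with DSN (duplex-specific nuclease), which lowers abundant transcripts, and TPM does not show how evenly it acted.

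As the sequence context of a loop in which NF-kB drives its own inhibitors, promoter windows of 300 bases (250 before the start and 50 from it on, RefSeq, GRCm38.p6) were searched on both strands for the kappa B consensus. Windows were found for 7 members, and 5 of them held a match: Nfkb2, Bcl3, Nfkbia, Nfkbie and Tnfaip3. Of all 27025 genes with a window, 5.14% held a match. The Tnf and Zc3h12a windows held none in these letters. The stretches are written 5′ to 3′ on the strand of the gene, with the match in capitals, and position 1 is the first transcribed base.
Nfkb2, chr19:46304688-46304718, plus strand, match from -39 to -29 (a pair of overlapping matches): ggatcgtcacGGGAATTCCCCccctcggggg
Nfkb2, chr19:46304716-46304745, plus strand, match from -11 to -2: ggggccgaaaGGGGCTTTCCcggctggagc
Nfkb2, later start, chr19:46305449-46305478, plus strand, match from -236 to -227: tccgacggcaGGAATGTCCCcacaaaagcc
Nfkb2, later start, chr19:46305695-46305724, plus strand, match from 11 to 20: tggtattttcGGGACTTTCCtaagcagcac
Bcl3, chr7:19822734-19822763, minus strand, match from 3 to 12: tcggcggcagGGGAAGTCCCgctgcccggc
Nfkbia, chr12:55492657-55492686, minus strand, match from -29 to -20: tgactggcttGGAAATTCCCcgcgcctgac
Nfkbie, chr17:45555584-45555613, plus strand, match from -106 to -97: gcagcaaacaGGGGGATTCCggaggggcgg
Tnfaip3, chr10:19015516-19015545, minus strand, match from -125 to -116: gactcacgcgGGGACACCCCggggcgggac
Tnfaip3, chr10:19015403-19015432, minus strand, match from -12 to -3: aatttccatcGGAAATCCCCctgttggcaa
The first Nfkb2 window held 3 matches, a number reached by 0.0517% of all 32851 windows.

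Most of these genes changed after short-term PM2.5. Against PBS, 8 of the 10 passed, beside 51.9% of all tested genes: 7 rose (Tnf, Nfkb2, Relb, Nfkbia, Nfkbie, Bcl3 and Zc3h12a), beside 11.7% of all tested genes that rose. Nfkb1 fell, beside 40.3% of all tested genes that fell, and Nfkbiz and Tnfaip3 did not pass (limma, Benjamini-Hochberg adjusted p under 0.05). The median change of the members was 0.73, and that of all tested genes was -0.34. The short-term and PBS libraries did not overlap in 8 of the 10 members, and in 60.3% of all tested genes. The same 8 members were called in all 22 alternative analyses. After length correction 8 rose and 1 fell, beside 23.6% and 26% of all genes.

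Fewer passed after long-term PM2.5. Against PBS, 3 of the 10 rose (Tnf, Bcl3 and Zc3h12a), beside 9.51% of all tested genes. By limma 0 fell, also at an unadjusted p under 0.05, beside 1.72% of all tested genes. The median change was 0.53, against 0.03 over all tested genes, and the groups did not overlap in 6 members and in 43.2% of all tested genes. The count is fragile: it was 0 without long-term replicate 1, long-term replicate 2, PBS replicate 1 or PBS replicate 2, 1 without short-term replicate 3 or PBS replicate 3, and 7 without short-term replicate 1. After length correction it was 7, with 13% of all genes higher, and the 4 added were Nfkb2, Nfkbie, Nfkbiz and Tnfaip3. Of these, only the change of Nfkb2 grew, from 0.46 to 0.50 (SE from 0.17 to 0.16). Those of Nfkbie (0.52 to 0.41), Nfkbiz (0.72 to 0.65) and Tnfaip3 (0.58 to 0.53) became smaller. Their SE fell too, from 0.17 to 0.13, from 0.33 to 0.20 and from 0.21 to 0.095.

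Between the exposures 6 of the 10 passed, beside 50.5% of all tested genes. Tnf, Nfkb2, Relb and Nfkbia were lower after long-term than after short-term PM2.5, 4 of 10 members beside 7.08% of all tested genes. Nfkb1 and Nfkbiz were higher, beside 43.4% of all tested genes. The groups did not overlap in 6 members and in 60.1% of all tested genes. The count of 6 calls fell to 3 without long-term replicate 1, long-term replicate 3 or short-term replicate 3, to 2 without long-term replicate 2, and Tnf alone was called in all 22 alternatives. After length correction 7 members were lower, beside 22.3% of all genes, and by limma 0 were higher (1 at an unadjusted p under 0.05), beside 19.3% of all genes. Scaling by median ratios gave 7 lower and 1 higher, and quantile normalization 6 lower and 1 higher. The 3 comparisons share libraries, so their values are set side by side and not correlated.

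**Figure D1:**
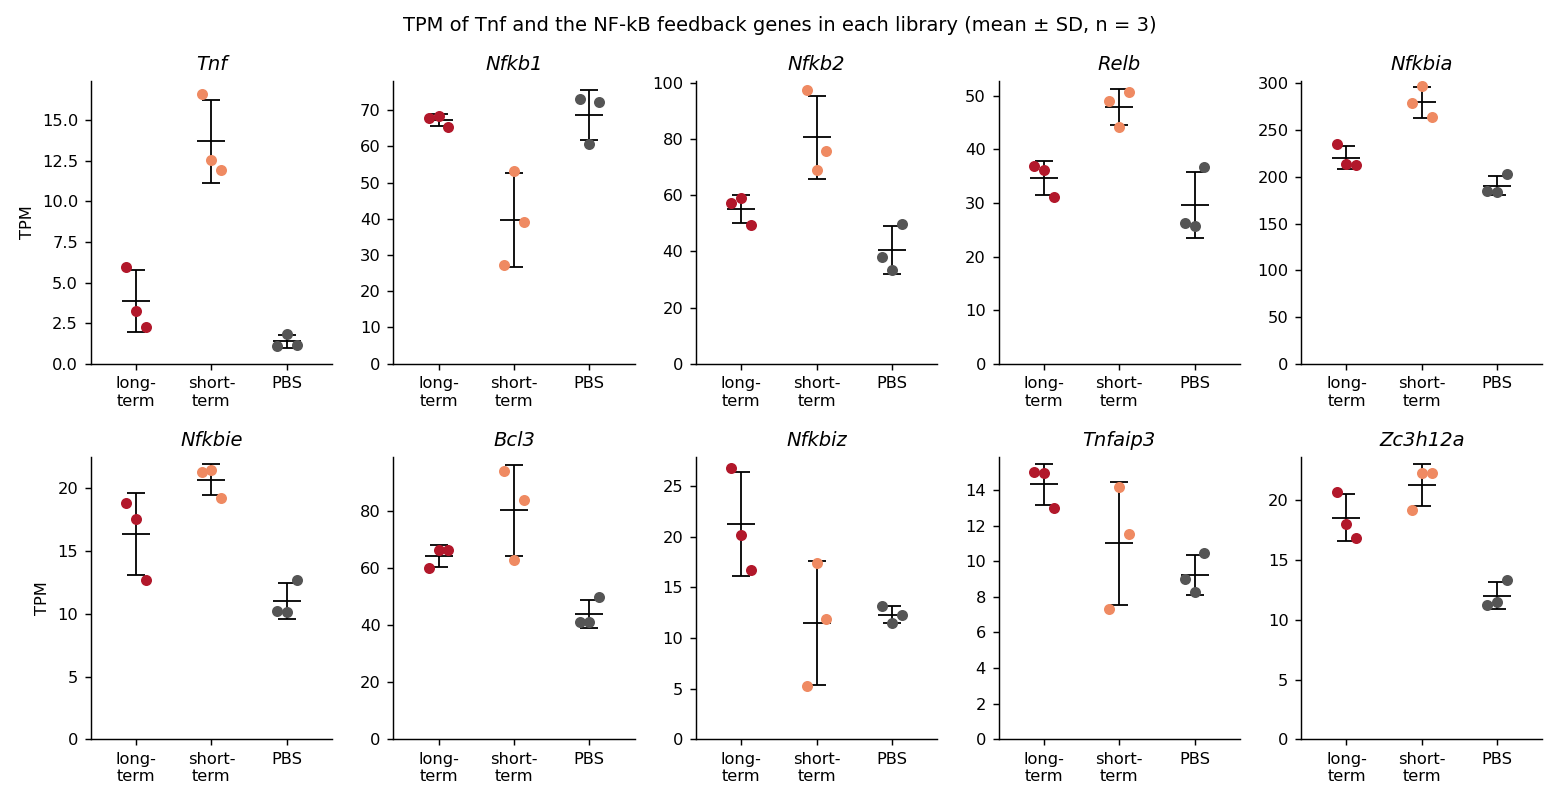
TPM (vertical axis, from 0) of each of the 10 genes in every library of the long-term PM2.5, short-term PM2.5 and PBS groups; points are libraries, and bars are the mean ± SD (n = 3). Tnf stands at 11.93 to 16.63 TPM in the short-term libraries, above all long-term and PBS libraries, while Nfkb1 is lowest in the short-term libraries.

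Tnf (gene ID 21926, chr17:35199367-35202007, GRCm38) encodes the ligand that starts the loop. Its long-term libraries read 5.98, 3.27 and 2.28 TPM, its short-term libraries 16.63, 12.54 and 11.93 TPM and its PBS libraries 1.08, 1.86 and 1.18 TPM. None of the 3 groups overlapped: every short-term library was above every long-term library, and every long-term library above every PBS library. The means were 3.84 ± 1.92 TPM after long-term PM2.5, 13.7 ± 2.56 TPM after short-term PM2.5 and 1.37 ± 0.424 TPM after PBS (SD, n = 3 each). The mean after short-term PM2.5 was 9.98 times that of PBS, a log2 change of 2.63 ± 0.26 (SE, adjusted p = 0.000122), which placed Tnf at rank 45 from the highest of the 13991 tested genes. After long-term PM2.5 the mean was 2.80 times that of PBS, and the fitted log2 change was again smaller, at 0.97 ± 0.26 (adjusted p = 0.0401) or 1.96-fold. Long-term against short-term, the change was -1.66 ± 0.26 (adjusted p = 0.00128). After length correction long-term PM2.5 gave 0.76 against PBS (adjusted p = 0.0497) and -1.79 against short-term (0.000472), and short-term PM2.5 gave 2.55 against PBS (3.87e-05).

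The long-term call for Tnf was thin: 6 of the 9 analyses that left out a library lost it, namely those without long-term replicate 1 (adjusted p = 0.146), long-term replicate 2 (0.0914), short-term replicate 3 (0.0619), or PBS replicate 1 (0.165), 2 (0.0634) or 3 (0.132). The log2 change stayed positive, between 0.67 and 1.35, over all 22 alternatives. In bulk lung, fewer cells of a type and less RNA per cell cannot be told apart, for Tnf and for every gene below. Its level is also set after transcription, because the Tnf mRNA carries an AU-rich element through which ZFP36 and related proteins destroy it. The sense strand of the 767-base 3′ UTR of Tnf held the nonamer TTATTTATT 5 times (GENCODE vM21 transcript). Only 39 of 21668 genes with a 3′ UTR, or 0.180%, held at least as many, and 7.33% held any. Among the members, Nfkbia and Tnfaip3 held 1 each and the other 7 held none. The stretch with 4 of the 5 Tnf nonamers, which overlap, is shown with the nonamers in capitals, on the minus strand of the genome, which is the sense strand of Tnf.
Tnf 3′ UTR, chr17:35199681-35199710, minus strand: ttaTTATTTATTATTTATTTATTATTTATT

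After short-term PM2.5 the subunit gene Nfkb1 fell, while Nfkb2 and Relb rose. Nfkb1 (gene ID 18033, chr3:135584655-135691969) encodes p105, which is cut to the p50 subunit of the classical dimer. Long-term lungs had 67.88, 68.43 and 65.36 TPM, short-term lungs 27.12, 53.09 and 39.04 TPM and PBS lungs 73.10, 60.70 and 72.23 TPM. The short-term libraries were all below the other groups, and the long-term libraries lay inside the range of PBS. Nfkb1 was the only member to fall after short-term PM2.5, by 0.82 ± 0.20 on the log2 scale (SE, adjusted p = 0.00767). Its transcript of 4117 bases is among the longer ones, for which the short-term libraries read low in general, and the length-corrected change was -0.38 (adjusted p = 0.0156). Long-term PM2.5 gave -0.03 ± 0.20 against PBS (adjusted p = 0.973). The change of 0.79 ± 0.20 against short-term (adjusted p = 0.0100) did not pass after length correction (0.30, adjusted p = 0.052).

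Nfkb2 (gene ID 18034, chr19:46300994-46312400) encodes p100, which holds RelB in the cytoplasm until the alternative pathway trims it to p52. Levels were 57.22, 58.90 and 49.48 TPM in long-term lungs, 97.34, 69.08 and 75.55 TPM in short-term lungs and 38.15, 33.22 and 49.86 TPM in PBS lungs. The short-term libraries were above all others, while long-term and PBS overlapped. The short-term mean was 1.996 times that of PBS, a log2 change of 0.98 ± 0.17 (SE, adjusted p = 0.0017). Its transcript has 3846 bases, and the length-corrected change was 1.38 (adjusted p = 8.01e-05). Long-term PM2.5 gave 0.46 ± 0.17 against PBS (adjusted p = 0.142), and 0.50 after length correction (adjusted p = 0.0388). The change of -0.53 ± 0.17 against short-term (adjusted p = 0.0288) was lost in 5 of 9 analyses without a library: long-term replicate 1 (adjusted p = 0.0632), 2 (0.0530) or 3 (0.0976), and short-term replicate 1 (0.0595) or 3 (0.0524).

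Nfkb1 and Nfkb2 transcripts are close in length, at 4117 and 3846 bases, but differ in GC content, at 53.1% and 59.4%. Their TPM are set against each other within a library without correction for either. The ratio of Nfkb2 to Nfkb1 was 0.843, 0.861 and 0.757 in long-term lungs, 3.59, 1.30 and 1.94 in short-term lungs and 0.522, 0.547 and 0.690 in PBS lungs. The groups did not overlap in this ratio, and Nfkb2 exceeded Nfkb1 in the 3 short-term libraries and in no other. Short-term replicate 1, with the highest ratio, also lost most signal with length (-1.67, against -0.82 and -1.04 in replicates 2 and 3). The part of this loss in the ratio was not tested.

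Relb (gene ID 19698, chr7:19606217-19629438) encodes the partner of p52 and p100. In long-term lungs it stood at 36.87, 36.16 and 31.07 TPM, in short-term lungs at 49.07, 44.13 and 50.65 TPM and in PBS lungs at 26.34, 25.73 and 36.66 TPM. The short-term libraries were again above all others, and PBS replicate 3 lay inside the long-term range. The short-term mean was 1.62 times that of PBS, with a log2 change of 0.69 ± 0.15 (SE, adjusted p = 0.00463). Long-term PM2.5 gave 0.24 ± 0.15 against PBS (adjusted p = 0.450) and -0.46 ± 0.15 against short-term (adjusted p = 0.0305). The second was lost without long-term replicate 1 (adjusted p = 0.0582), 2 (0.0633) or 3 (0.108), or short-term replicate 3 (0.0883). After length correction short-term PM2.5 gave 0.79 against PBS (adjusted p = 0.000316), and long-term gave 0.21 against PBS (0.186) and -0.58 against short-term (0.00272).

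The cytoplasmic inhibitors rose after short-term PM2.5. Nfkbia (gene ID 18035, chr12:55489409-55492647) encodes IkB-alpha, the inhibitor that NF-kB resynthesises fastest. It was the most abundant member in every group, clear of the next, with 234.98, 214.09 and 212.61 TPM in long-term lungs, 279.03, 296.70 and 263.59 TPM in short-term lungs and 184.83, 184.27 and 202.61 TPM in PBS lungs. The 3 groups did not overlap, with short-term highest. Its short-term mean was 1.47 times that of PBS, the smallest of the 7 that rose, with a log2 change of 0.55 ± 0.10 (SE, adjusted p = 0.0019). Long-term PM2.5 gave 0.21 ± 0.10 against PBS (adjusted p = 0.256), which became -0.0025 after length correction. Long-term against short-term gave -0.34 ± 0.10 (adjusted p = 0.0179), a call lost without long-term replicate 2 (adjusted p = 0.0678) or 3 (0.0648). The length-corrected changes were -0.43 for long-term against short-term (adjusted p = 0.0016) and 0.43 for short-term against PBS (0.00113).

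Nfkbie (gene ID 18037, chr17:45555700-45563169) encodes IkB-epsilon, a slower inhibitor of the same kind. Its long-term libraries read 18.84, 17.57 and 12.65 TPM, its short-term libraries 21.31, 21.40 and 19.24 TPM and its PBS libraries 10.25, 10.16 and 12.70 TPM. Short-term libraries were above all others, and long-term replicate 3 lay just under the highest PBS library. The short-term mean was 1.87 times that of PBS (log2 change 0.85 ± 0.17, SE, adjusted p = 0.0029). Long-term PM2.5 gave 0.52 ± 0.17 against PBS (adjusted p = 0.0849), and 0.41 after length correction (adjusted p = 0.045). Long-term against short-term gave -0.34 ± 0.17 (adjusted p = 0.116), and passed after length correction at -0.57 (adjusted p = 0.00695). The length-corrected short-term change against PBS was 0.99 (adjusted p = 0.000246).

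The nuclear IkB proteins act on the DNA-bound dimers. Bcl3 rose after both exposures, and Nfkbiz passed in neither. Bcl3 (gene ID 12051, chr7:19808462-19822824) encodes a protein that sits on p50 and p52 dimers. Long-term lungs had 59.82, 66.31 and 66.38 TPM, short-term lungs 93.92, 62.71 and 83.56 TPM and PBS lungs 40.90, 40.94 and 49.62 TPM. Both exposed groups were above all PBS libraries and overlapped each other through short-term replicate 2. The short-term mean was 1.83 times that of PBS (log2 change 0.84 ± 0.16, SE, adjusted p = 0.00205). The long-term mean was 1.46 times that of PBS (0.54 ± 0.16, adjusted p = 0.0482), a call that lay at the threshold and was kept in 2 of the 9 analyses without a library, those without short-term replicate 1 or 2. Without long-term replicate 1, 2 or 3 its adjusted p was 0.107, 0.158 or 0.148, without short-term replicate 3 it was 0.0760, and without PBS replicate 1, 2 or 3 it was 0.186, 0.154 or 0.0587. Long-term against short-term gave -0.30 ± 0.16 (adjusted p = 0.129). After length correction all 3 comparisons of Bcl3 passed, at 0.52 for long-term against PBS (adjusted p = 0.00193), 0.84 for short-term against PBS (5e-05), and -0.32 between the exposures (long-term minus short-term, 0.0145).

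Nfkbiz (gene ID 80859, chr16:55811375-55838954) encodes IkB-zeta, which is needed for later NF-kB targets such as Lcn2. Levels were 26.80, 20.15 and 16.72 TPM in long-term lungs, 5.23, 17.41 and 11.86 TPM in short-term lungs and 13.14, 11.53 and 12.27 TPM in PBS lungs. The long-term libraries were above all PBS libraries, and the short-term libraries spread on both sides of them. Long-term PM2.5 gave a log2 change of 0.72 ± 0.33 against PBS (SE, adjusted p = 0.239), and 0.65 after length correction (adjusted p = 0.0395). Short-term PM2.5 gave -0.22 ± 0.33 against PBS (adjusted p = 0.583), and 0.29 after length correction (adjusted p = 0.253). The difference of 0.94 ± 0.33 between long-term and short-term (adjusted p = 0.0369) was 0.51 without short-term replicate 1 (adjusted p = 0.0519). It was kept only without long-term replicate 3 or short-term replicate 2 among the 9 such analyses, whose adjusted p ran up to 0.129.

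The feedback enzymes cut the signal at the protein and at the RNA level. Tnfaip3 (gene ID 21929, chr10:19000910-19015410) encodes A20, which edits ubiquitin chains upstream of the inhibitor kinase. In long-term lungs it stood at 15.01, 14.93 and 12.98 TPM, in short-term lungs at 7.32, 14.18 and 11.51 TPM and in PBS lungs at 9.02, 8.26 and 10.47 TPM. The long-term libraries were above all PBS libraries, and short-term replicate 1 was below them. As deposited, neither exposure passed against PBS: long-term gave 0.58 ± 0.21 (SE, adjusted p = 0.122) and short-term 0.19 ± 0.21 (adjusted p = 0.464). At 4422 bases it is the longest transcript among the members. After length and GC correction both passed, with 0.53 ± 0.095 for long-term (adjusted p = 0.00288) and 0.77 ± 0.095 for short-term (adjusted p = 0.000141). The long-term change was thus smaller than as deposited and passed with a smaller SE, while the short-term change was larger. Without short-term replicate 1 and without correction, the short-term change was 0.43 (adjusted p = 0.0223).

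Zc3h12a (gene ID 230738, chr4:125118414-125127881) encodes Regnase-1, a nuclease that degrades mRNAs of inflammatory cytokines such as Il6. Its long-term libraries read 20.68, 17.98 and 16.87 TPM, its short-term libraries 19.19, 22.27 and 22.26 TPM and its PBS libraries 11.23, 11.49 and 13.35 TPM. Every exposed library was above every PBS library, and the exposed groups overlapped. The short-term mean was 1.77 times that of PBS (log2 change 0.77 ± 0.14, SE, adjusted p = 0.0019), and the long-term mean 1.54 times (0.58 ± 0.14, adjusted p = 0.0226). The long-term call was lost without long-term replicate 1 (adjusted p = 0.124) or 2 (0.0769), or PBS replicate 1 (0.114) or 2 (0.0801). Long-term against short-term gave -0.19 ± 0.14 (adjusted p = 0.268). With the length correction Zc3h12a gave 0.53 for long-term against PBS (adjusted p = 0.00281), 0.98 for short-term against PBS (3.33e-05), and -0.45 between the exposures (long-term minus short-term, 0.00389).

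**Figure D2:**
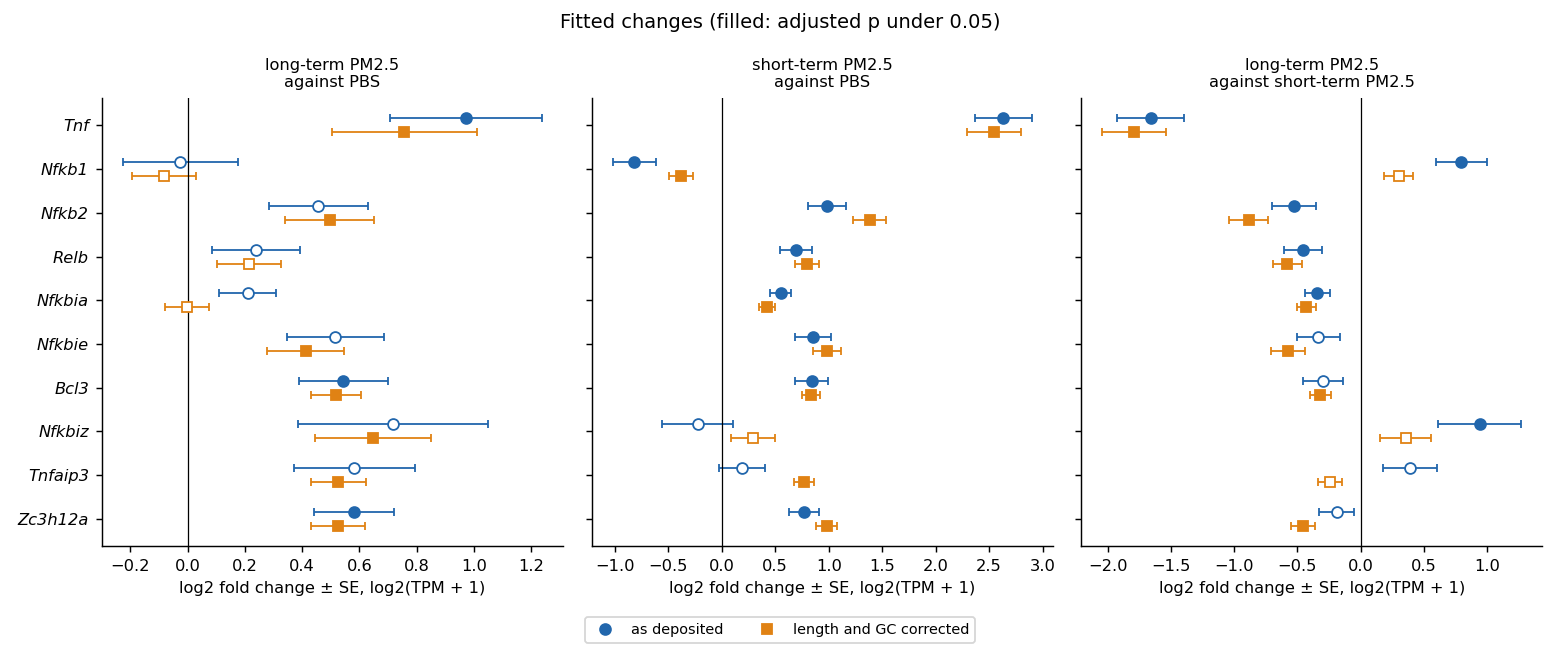
Fitted log2 fold change ± SE of each gene (rows) on the log2(TPM + 1) scale in the 3 comparisons, as deposited (circles) and after length and GC correction (squares); filled symbols have an adjusted p under 0.05. Tnf has the largest short-term change, 2.63, Nfkb1 alone is negative and filled against PBS, and Tnfaip3 passes against PBS after correction only.

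**Figure D3:**
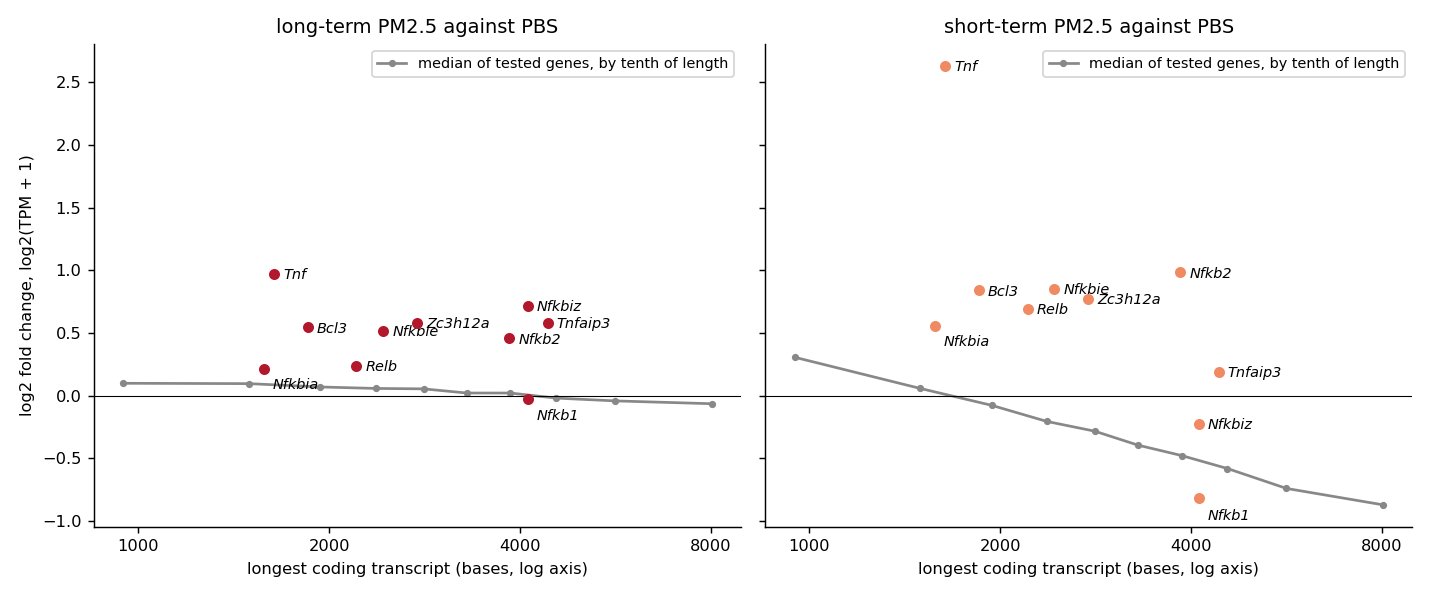
Log2 fold change against PBS (vertical axis) by length of the longest coding transcript (horizontal axis, bases, log scale) for the 10 genes, with the median of all tested genes in each of 10 length bins as a grey line. After short-term PM2.5 (right) the median declines from 0.31 in the bin of shortest to -0.87 in that of longest transcripts, and Nfkb1 is the only one of the 10 below the line; after long-term PM2.5 (left) the line is nearly flat.

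In TPM, which is per transcript length, the order of the members was partly shared by the groups. Nfkbia led in all 3. Nfkb1 had rank 2 after long-term PM2.5, where it overlapped Bcl3, and after PBS, where it was clear of the next. After short-term PM2.5 it had rank 5 and overlapped Relb, while Nfkb2 and Bcl3, which overlapped each other, had ranks 2 and 3. Tnf was lowest after long-term PM2.5 and PBS, below every library of every other member, and had rank 8 after short-term PM2.5, where its libraries overlapped those of Nfkbiz and Tnfaip3. Zc3h12a and Nfkbie were neighbours in every group and overlapped in each. Over the 9 libraries the closest profiles among the members, as the root mean square difference of centred log2(TPM + 1), were Nfkbie and Zc3h12a at 0.135, Relb and Nfkbia at 0.150, and Nfkb2 and Bcl3 at 0.162. The farthest pair was Tnf and Nfkb1 at 1.52.

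By the same measure, over 13587 named genes, the profiles most like that of Tnf were those of Hcar2 (0.246), Asprv1 (0.295), Cfb (0.295), Rtn4rl2 (0.306) and Noxo1 (0.325). Hcar2, a receptor for hydroxylated fatty acids, averaged 8.51 TPM after long-term PM2.5, 27.97 TPM after short-term PM2.5 and 3.98 TPM after PBS. Cfb, the factor B of complement, averaged 73.9, 161.1 and 30.9 TPM in the long-term, short-term and PBS libraries. Nearest to the mean profile of the 10 members were Myc (0.0684), C1ra (0.0734), Ebpl (0.0833), Efhd2 (0.0874) and Mpdu1 (0.0930). Myc, a transcription factor of cell growth, averaged 12.2, 14.7 and 9.29 TPM in the same order of groups.

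Of the 4 other NF-kB and IkB genes, 2 rose and 2 fell after short-term PM2.5. Rela, the main activating subunit, read 104.23 to 113.95 TPM in long-term lungs, 88.75 to 106.95 TPM in short-term lungs and 125.39 to 130.73 TPM in PBS lungs. It fell after short-term PM2.5, by 0.37 on the log2 scale (adjusted p = 0.016), close to the median of all genes, and the length-corrected change was -0.16 (adjusted p = 0.179). The call was lost without PBS replicate 1 (adjusted p = 0.0565) or 3 (0.0505). Rel, the subunit c-Rel, was low throughout, at 2.64 to 3.72 TPM in the long-term libraries, 1.05 to 2.25 TPM in the short-term libraries and 2.54 to 3 TPM in the PBS libraries. Its short-term change turned round with the correction, from -0.48 as deposited (adjusted p = 0.0494) to 0.40 corrected (adjusted p = 0.0249). Nfkbid, another nuclear IkB gene, rose after short-term PM2.5 by 0.87 (adjusted p = 0.00641), and Nfkbib, which encodes IkB-beta, by 0.44 (adjusted p = 0.0469). The short-term calls of Rel and Nfkbib survived only the omission of short-term replicate 2 among the 9 libraries, with adjusted p up to 0.139 for Rel and 0.149 for Nfkbib. By limma 0 of these 4 passed for long-term against PBS, and 1 was lower at an unadjusted p under 0.05.

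Of 56 further tested genes of the pathway in 6 lists (these subunits, the kinase relay, TNF receptors and adaptors, ubiquitin editing, TNF release and mRNA decay, and the alternative pathway), 12 rose and 17 fell after short-term PM2.5. Of all tested genes 11.7% rose and 40.3% fell. The median change of the 56 was -0.28, beside -0.34 for all tested genes, and after length correction 25 rose and 6 fell with a median of 0.22, beside 23.6% and 26% of all genes. After long-term PM2.5, 4 of the 56 rose, beside 9.51% of all tested genes, and by limma 0 fell, with 2 lower at an unadjusted p under 0.05. The median change was 0.07. These 4 were Ikbke, Tnfrsf1b, Tnip3 and Tnfrsf11a, the last lost without long-term replicate 1 (adjusted p = 0.160) or 2 (0.122), short-term replicate 3 (0.0585) or PBS replicate 1 (0.160) or 2 (0.120). Tnip3, also among the 12 that rose after short-term PM2.5, entered the tests only through the exposed libraries. Its place in both counts is a description. Long-term against short-term, 22 were higher and 5 lower, beside 43.4% and 7.08% of all tested genes. After length correction 5 were higher and 20 lower, beside 19.3% and 22.3% of all genes.

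Both TNF receptor genes rose after short-term PM2.5, and Tnfrsf1b also rose after long-term PM2.5. Tnfrsf1a, the receptor that most cells carry, read 143.8, 137.14 and 133.47 TPM in long-term lungs, 184.51, 185.07 and 169.8 TPM in short-term lungs and 137.38, 140.47 and 140.95 TPM in PBS lungs. It rose after short-term PM2.5 (log2 change 0.36 ± 0.09, SE, adjusted p = 0.00964) and was lower after long-term than after short-term PM2.5 (-0.38, adjusted p = 0.00903). Tnfrsf1b, the receptor found mainly on leukocytes and endothelium, read 41.57, 36.46 and 30.02 TPM in long-term lungs, 29.66, 32.83 and 28.6 TPM in short-term lungs and 17.84, 19.53 and 22.39 TPM in PBS lungs. It rose after long-term PM2.5 (0.82 ± 0.15, adjusted p = 0.00539) and after short-term PM2.5 (0.59 ± 0.15, adjusted p = 0.0089). Both receptors kept these calls in all 22 alternatives. Traf5, an adaptor of the family, fell after short-term PM2.5 by 0.76 (adjusted p = 0.00129).

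Among the kinases, Ikbke, an IKK-related kinase that NF-kB itself induces, rose after long-term PM2.5 (0.77, adjusted p = 0.00929) and after short-term PM2.5 (0.48, adjusted p = 0.0249). The first call was lost without long-term replicate 1 (adjusted p = 0.0573) or PBS replicate 1 (0.0531), and the second without short-term replicate 3 (0.0610) or PBS replicate 1 (0.0842), 2 (0.0553) or 3 (0.0624). Of the 10 tested genes of the kinase relay, 1 rose and 4 fell after short-term PM2.5, beside 11.7% and 40.3% of all tested genes. After length correction 2 rose and 1 fell, beside 23.6% and 26% of all genes. Ikbkb, the catalytic kinase of the classical pathway, was one of those that fell (-0.54, adjusted p = 0.0298), with a length-corrected change of -0.13 (adjusted p = 0.26), and it was lost without short-term replicate 3 (0.0523) or PBS replicate 1 (0.0796) or 3 (0.0973). Tab2, an adaptor of the kinase TAK1, fell by 0.95 (adjusted p = 0.0113), and by 0.35 after length correction (adjusted p = 0.027).

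Tnip3, a partner of A20 that binds ubiquitin, was below 1 TPM in every PBS library and entered the tests only through the exposed libraries, so its values are a description. Long-term lungs had 1.94, 1.76 and 1.5 TPM, short-term lungs 1.42, 2.29 and 1.71 TPM and PBS lungs 0.38, 0.39 and 0.51 TPM. The log2 change was 0.94 ± 0.14 after long-term and 0.97 ± 0.14 after short-term PM2.5 (SE), and the pseudocount lowers such values at this level. Rnf11, a ubiquitin ligase that works with A20, fell after short-term PM2.5 by 1.44 (adjusted p = 0.00244), and by 0.87 after length correction.

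The RNA-binding proteins that destroy AU-rich mRNAs such as that of Tnf went in opposite directions after short-term PM2.5. Zfp36 (tristetraprolin), itself an induced feedback gene, read 137.04 to 144.98 TPM in long-term lungs, 147.68 to 161.81 TPM in short-term lungs and 101.58 to 122.33 TPM in PBS lungs. It rose after short-term PM2.5 by 0.46 (adjusted p = 0.00515), and gave 0.34 after long-term PM2.5 (adjusted p = 0.0635). Its relatives fell: Zfp36l1 read 197.64, 190.93 and 176.38 TPM in long-term lungs, 49.99, 98.27 and 94.6 TPM in short-term lungs and 183.77, 208.8 and 201.95 TPM in PBS lungs. Its short-term change was -1.34 ± 0.22 (SE, adjusted p = 0.00112), and -0.98 after length correction. Zfp36l2 fell by 1.39 (adjusted p = 0.00186), and by 1.06 after correction.

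In the alternative pathway, which uses Nfkb2 and Relb, ligand and receptor genes were also measured. Tnfrsf12a, the receptor of TWEAK, read 50.79, 47.93 and 49.67 TPM in long-term lungs, 109.71, 93.27 and 96.87 TPM in short-term lungs and 48.22, 42.18 and 48.09 TPM in PBS lungs. It rose after short-term PM2.5 (1.10 ± 0.11, SE, adjusted p = 0.000127) and was lower after long-term than after short-term PM2.5 (adjusted p = 0.000207). Tnfsf14, the ligand LIGHT, rose after short-term PM2.5 by 0.98 (adjusted p = 0.00154), and Ltb, a lymphotoxin chain, by 0.78 (adjusted p = 0.0325). Tnfrsf13c, the BAFF receptor of B cells, gave -0.67 (adjusted p = 0.0202), which was -0.61 after length correction (adjusted p = 0.0143) but did not pass with median-ratio scaling (-0.37, adjusted p = 0.127) or quantile normalization (-0.21, adjusted p = 0.436). The Ltb call was lost without PBS replicate 1 (adjusted p = 0.0827) or 2 (0.106), and that of Tnfrsf13c without PBS replicate 1 (0.0640) or 3 (0.0858). Of the 9 tested genes of this list, 3 rose and 2 fell after short-term PM2.5, beside 11.7% and 40.3% of all tested genes, and 5 and 1 after length correction, beside 23.6% and 26%.

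Genes that NF-kB is known to drive, such as chemokines and acute phase proteins, made up a further list. Of 26 tested response genes, 19 rose and 2 fell after short-term PM2.5, beside 11.7% and 40.3% of all tested genes. Their median change was 1.32, beside -0.34 for all tested genes. After long-term PM2.5, 11 rose, beside 9.51% of all tested genes, and by limma 0 fell, with 1 lower at an unadjusted p under 0.05. The median change was 0.68, beside 0.03. Long-term against short-term, 16 were lower and 2 higher, beside 7.08% and 43.4% of all tested genes, with a median of -0.75 beside 0.41, and 19 were lower after length correction, beside 22.3%. The set was chosen with results of these libraries known, so its direction is not independent evidence. Il6, among the 26, read 0 to 0.14 TPM in PBS lungs and 0.28 to 1.23 TPM in long-term lungs. It would not have entered the tests without the short-term libraries, at 5.25 to 10.37 TPM, so its part here is a description. Ccl2 and Cxcl3, also among the 26, read 0.73 to 1.61 and 0.49 to 1.81 TPM in PBS lungs. They met the filter only together with exposed libraries, where they were high, so their part is a description too.

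Ccl3, a macrophage chemokine, read 19.47, 13.43 and 11.02 TPM in long-term lungs, 89.89, 75.82 and 86.24 TPM in short-term lungs and 1.91, 2.16 and 3.19 TPM in PBS lungs. Its log2 change was 2.18 after long-term (adjusted p = 0.000165) and 4.65 after short-term PM2.5 (adjusted p = 6.85e-07). Ccl2, which draws monocytes, gave 2.08 after long-term and 4.51 after short-term PM2.5, as a description only. Lcn2, an iron-binding acute phase protein, averaged 1548 TPM after long-term PM2.5, 8556 TPM after short-term PM2.5 and 273.7 TPM after PBS. Ccl4, the close relative of Ccl3, gave 4.48 after short-term PM2.5 (adjusted p = 1.49e-05), but 0.93 after long-term PM2.5 (adjusted p = 0.0923). C3, the central complement protein, gave 1.06 after long-term (adjusted p = 0.00018) and 1.84 after short-term PM2.5 (adjusted p = 3.58e-06). The response genes that fell after short-term PM2.5 were Irf1, an interferon regulatory factor (-0.56, adjusted p = 0.00389), and Cd83, a marker of activated antigen-presenting cells (-0.45, adjusted p = 0.0483), which did not pass after length correction (-0.27, adjusted p = 0.0536). Cd83 rose after long-term PM2.5 (0.71, adjusted p = 0.0231).

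**Figure D4:**
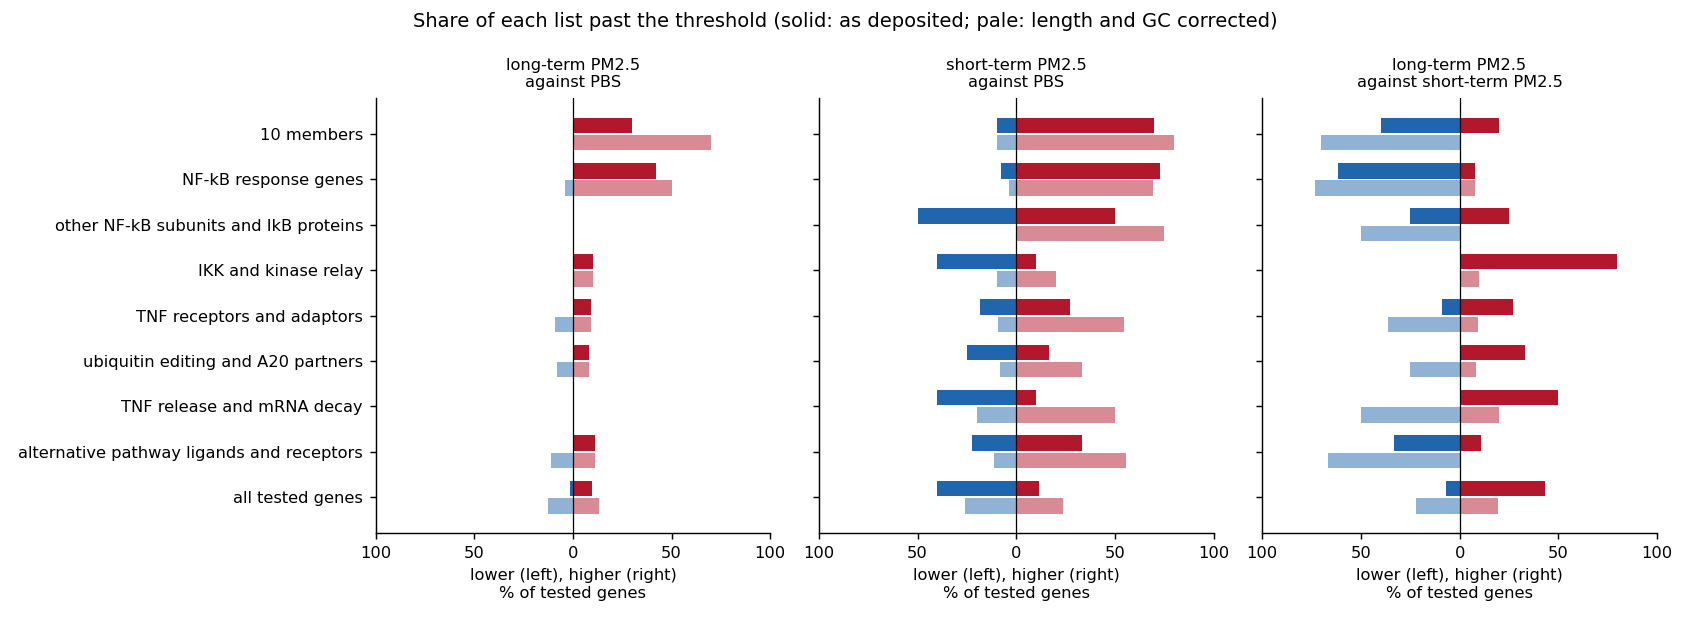
Share of tested genes (percent) past the threshold in each list, lower to the left and higher to the right, as deposited (solid) and after length and GC correction (pale), in the 3 comparisons, with all tested genes in the bottom row. The 10 members and the NF-kB response genes lean to the right against PBS. After short-term PM2.5 the kinase relay, ubiquitin editing, and TNF release and mRNA decay lists change side with the correction. The TNF receptor and alternative pathway lists lean to the right with and without it. The other NF-kB subunits and IkB proteins move from even to the right.

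Markers of the cells that make and answer Tnf also moved. The summed level of 12 neutrophil markers was 494.7 to 836.1 TPM in the long-term libraries, 1062.9 to 1602.4 TPM in the short-term libraries and 388.6 to 641.5 TPM in the PBS libraries. Of these 12, 1 rose after long-term PM2.5, beside 9.51% of all tested genes, and 9 after short-term PM2.5, beside 11.7%. Their median change was 0.08 after long-term and 0.92 after short-term PM2.5, beside 0.03 and -0.34 for all tested genes. Ltf, 1 of the 12, averaged 190.0 TPM after long-term PM2.5, 39.1 TPM after short-term PM2.5 and 22.0 TPM after PBS, and so lifts the long-term sum. The 12 monocyte and interstitial macrophage markers summed to 8190 to 11510 TPM in the long-term libraries, 3429 to 5261 TPM in the short-term libraries and 4530.1 to 4934 TPM in the PBS libraries. Lyz2, which alveolar type 2 cells also express, made up 88.2% of these sums over all libraries, and the other 11 markers summed to 857.9 to 1262.0 TPM in long-term lungs, 743.4 to 785.1 TPM in short-term lungs and 385.1 to 452.4 TPM in PBS lungs. Of the 12, 8 rose after long-term and 6 after short-term PM2.5, beside the same 9.51% and 11.7%. The 10 alveolar macrophage markers summed to 1155 to 1476 TPM in the long-term libraries, 410.3 to 561.7 TPM in the short-term libraries and 680.2 to 885.3 TPM in the PBS libraries. Car4 made up 34.1% of these sums over all libraries. The other 9 markers summed to 876.3 to 1206.8 TPM in long-term lungs, 141.4 to 271.3 TPM in short-term lungs and 368.1 to 586.1 TPM in PBS lungs. Of the 10, 5 rose after long-term PM2.5, beside 9.51% of all tested genes, and 5 fell after short-term PM2.5, beside 40.3%. The 7 alveolar type 2 cell markers, which mark the tissue as lung, summed to 46557 to 49588 TPM in long-term lungs, 30059 to 36019.7 TPM in short-term lungs and 44389 to 45618 TPM in PBS lungs. Sftpc made up 75.6% of these sums over all libraries. The other 6 markers summed to 10281 to 11172 TPM in long-term lungs and 10431 to 10609 TPM in short-term lungs. In PBS lungs they summed to 9163 to 9887 TPM. Of the 7, 1 rose and 2 fell after short-term PM2.5, beside 11.7% and 40.3% of all tested genes. The 7 endothelial markers summed to 1856 to 2097 TPM in long-term lungs, 1920.9 to 2120.5 TPM in short-term lungs and 2576 to 2928 TPM in PBS lungs, and 4 of them fell after long-term PM2.5, beside 1.72% of all tested genes, and 5 after short-term PM2.5, beside 40.3%. No marker in any of the 12 cell type lists was at 0 in all libraries of a group. The part of these cells in the changes of the 10 genes was not tested.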

How the data were processed

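Whole-lung RNA of 9 libraries was purified with oligo(dT) beads, treated with DSN and read on a DNBSEQ machine, per the labels' protocols. The authors deposited 1 table of TPM values, 1 column per library and 18875 genes. HISAT2, Bowtie2, RSEM and DESeq2 are named in the submitters' processing notes without role or version, as is the build GRCm38.p6 for 8 of the 9 samples. Column sums differed by at most 1.09 TPM, so depth is unknown and no counting interval was computed.

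The 13991 genes that reached 1 TPM in 3 libraries or more were fitted as log2(TPM + 1), 3 groups in 1 model, by limma 3.58.1 (R 4.3.3), eBayes with an intensity trend, two-sided, Benjamini-Hochberg adjustment over all tested genes and a threshold of 0.05. Fold changes on this scale understate the change of low genes. The length correction subtracts, in each library, natural splines of 5 degrees of freedom each in transcript length and GC content (GENCODE vM21), leaving out 221 tested genes without a length. Further alternatives were another pseudocount (0.1), other filters, scalings, moderation, weights and samples, and each library left out. The correction without short-term replicate 1 was chosen after seeing the data. The main fit was tested on simulated data with independent noise and no length trend. That test does not cover the length correction or the other alternatives.

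The members and lists were chosen with earlier results of these data known. Named were the members, Rela, Rel, Nfkbib, Nfkbid, Tnfrsf1a, Tnfrsf1b, Zfp36, and from each list up to 3 genes with the smallest p among those changed per comparison. Irf1 and Cd83 were named after their values were seen. Replicate numbers were not used as pairs in the main fits. The promoters of Nfkb1, Relb and Nfkbiz were not used here.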

Additional observations from a re-analysis of the deposited data

Results flagged for a closer look

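For 6 of the 10 genes the response to long-term PM2.5 differed from the response to short-term PM2.5 against the same PBS libraries, tested as long-term minus short-term (limma, adjusted p under 0.05), beside 50.5% of all tested genes. The log2 difference was -1.66 for Tnf (adjusted p = 0.00128), -0.53 for Nfkb2 (0.0288), -0.46 for Relb (0.0305) and -0.34 for Nfkbia (0.0179), all 4 lower after long-term PM2.5. It was 0.79 for Nfkb1 (0.0100) and 0.94 for Nfkbiz (0.0369), both higher after long-term PM2.5. Of the 9 analyses that left out a library, all 9 kept the calls of Tnf and Nfkb1. The call of Nfkbia was kept in 7, that of Relb in 5, that of Nfkb2 in 4 and that of Nfkbiz in 2. The transcripts of Nfkb1 and Nfkbiz, at 4117 and 4115 bases, are long, and after length correction their differences were 0.30 (adjusted p = 0.052) and 0.36 (adjusted p = 0.183). Those of Tnf, Nfkb2, Relb and Nfkbia were then -1.79, -0.88, -0.58 and -0.43, with adjusted p between 0.000472 and 0.00272.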

How the results depend on the processing

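TPM gives no depth, and groups have 3 libraries. For long-term against PBS (1571 genes, 3 members), changed genes numbered 920 with a mean TPM of at least 5, 2583 with quantile normalization, 3550 with length and GC correction, 3881 with only the 2 groups compared, 5273 with array weights (whose estimation stopped before its tolerance) and 5048 with the correction and without short-term replicate 1. Members changed were 1 without a filter, with a mean of at least 5 or with the replicate block, 7 with the correction, with it and without short-term replicate 1, or with only the 2 groups, and 8 with array weights. With array weights 11335 genes changed for short-term against PBS, and 11345 genes and 10 members for long-term against short-term. The split of changed genes moved too: 1467 higher and 512 lower with median ratios and 1426 and 1157 with quantiles for long-term against PBS, 3421 and 3885 or 3477 and 3745 for short-term against PBS, and 3762 and 2756 or 2977 and 2996 for long-term against short-term. With the correction it was 1793 and 1757 for long-term against PBS, 3253 and 3581 for short-term against PBS, and 2658 and 3075 for long-term against short-term. In the other 2 comparisons no other such setting moved the total of changed genes or of changed members, both directions together, by over 1.5 times.

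Leaving out each library in turn gave 853 to 3157 genes and 0 to 7 members for long-term against PBS, and 4621 to 9168 genes and 2 to 8 members for long-term against short-term. For short-term against PBS the members were 8 or 9. Same-numbered libraries correlated between -0.29 and 0.26 in their deviations from group means, and other pairs between -0.27 and 0.34. No sign of pairing was seen, but 3 libraries per group are too few to exclude it. Outside the members, the short-term calls of Rela, Rel, Nfkbib, Ikbke, Ikbkb, Tab2 and Ltb and the long-term call of Tnfrsf11a were also lost in at least 1 analysis that kept all libraries or corrected for length, such as that of Ltb without a filter (adjusted p = 0.0759). The replicate block left 1125 genes for long-term against PBS, and with the correction 2995.

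Some directions reversed, and the cause was not tested. For long-term against PBS, Nfkbia became -0.0025 with the correction, with or without the block or short-term replicate 1, and Nfkb1 ran between -0.11 and 0.021 without a library. For short-term against PBS, Nfkbiz became 0.090 with median-ratio scaling, 0.22 with quantile normalization, 0.29 with the correction (also with the block) and 0.54 with the correction without short-term replicate 1, and ran between -0.57 and 0.21 without a library. Tnfaip3 ran between -0.0011 and 0.43 without a library. Rel became 0.40 with the correction (also with the block) and 0.29 with the correction without short-term replicate 1, and Tab3 became 0.15 with the correction and 0.14 with it and without that library. For long-term against short-term, quantile normalization gave -0.13 for Tnfaip3, -0.059 for Traf5 and -0.077 for Tnfrsf13c. The correction, with or without the block, gave -0.24 for Tnfaip3, -0.26 for Rel, -0.048 for Tab3, -0.076 for Traf3 and -0.23 for Cyld. The correction without short-term replicate 1 gave -0.29 for Tnfaip3, -0.15 for Rel, -0.043 for Tab3, -0.077 for Traf3, -0.23 for Cyld and -0.0017 for Ikbkb.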
